A study of Drosophila melanogaster with 4 samples.

Results

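The regions described here are the H3K27me2 clusters in the 1 Mb next to the telomere-side end of each large chromosome arm of Drosophila melanogaster. H3K27me2 is histone H3 dimethylated at lysine 27. A cluster is a region that the authors typed as enriched after chromatin immunoprecipitation and sequencing (ChIP-seq). It was counted as a member when its midpoint lay in one of 5 windows, in FlyBase release 5 coordinates. The windows are 2L 1 to 1000000, 2R 20146709 to 21146708, 3L 1 to 1000000, 3R 26905054 to 27905053 and X 1 to 1000000. They hold 489 of the 15589 clusters of replicate 1, 432 of the 15021 of replicate 2 and 452 of the 16862 in the combined list. These totals are over all sequences, and on the large arms alone the lists have 14573, 13804 and 15024 clusters. Together the windows make up 4.2% of the 119 Mb of the large arms.

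The chromatin came from nuclei of third-instar (L3) larvae of the Oregon-R strain, which is wild type and untreated as far as the labels say. The 2 ChIP samples were made with antibody Ab24684, and each has an input sample of the same number. Whole larvae or their tissues hold many cell types, so a value is an average over them. Nothing in the labels says that the replicates are separate populations, so their spread may be of technical origin.

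The enzyme that places H3K27me2 is E(z), the methyltransferase subunit of PRC2, a Polycomb complex. PRC2 also places the trimethyl mark of silenced developmental genes. The dimethyl mark is known to be broad in fly chromatin and to be removed or kept low over transcribed genes. Drosophila chromosome ends carry arrays of telomeric retrotransposons and, inside them, subtelomeric repeats known to silence genes inserted there. An assembled arm stops somewhere in or before these repeats, so distances below are from the end of the assembled sequence and not from the physical telomere. The deposited files hold regions and no reads, so depth is unknown, and assembly gaps or repeats in which reads cannot be placed were not removed from the windows.

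H3K27me2 coverage rose inward from the arm ends. In the mean over the 5 arms, clusters covered 9.15% of the first 50 kb in replicate 1 and 13.3% in replicate 2. At 150 to 200 kb the shares were 23.3% and 20.4%, and at 400 to 450 kb they were 50.5% and 30.9%. The highest step of the windows lay at 750 to 800 kb, with 85.9% and 80.3%. Both libraries were thus low over the outermost steps and high over the innermost ones.

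The rise was not even. A dip in the mean over arms reached 48.6% in replicate 1 and 27.1% in replicate 2 at 650 to 700 kb. Its neighbours had 60.4% and 70.7% in replicate 1 and 52.5% and 59.1% in replicate 2. On 3L coverage instead rose into this step, from 26.9% to 68.5% in replicate 1 and from 6.57% to 43.6% in replicate 2. It fell on the other arms in both replicates. Beyond the windows the mean share stayed high up to 1150 kb, with 66.1% and 48.0% at 1100 to 1150 kb. It then fell to 40.7% and 21.3% in the next step. For the arms without their end windows, the mean share was 43.3% in replicate 1 and 37.8% in replicate 2.

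**Figure D1:**
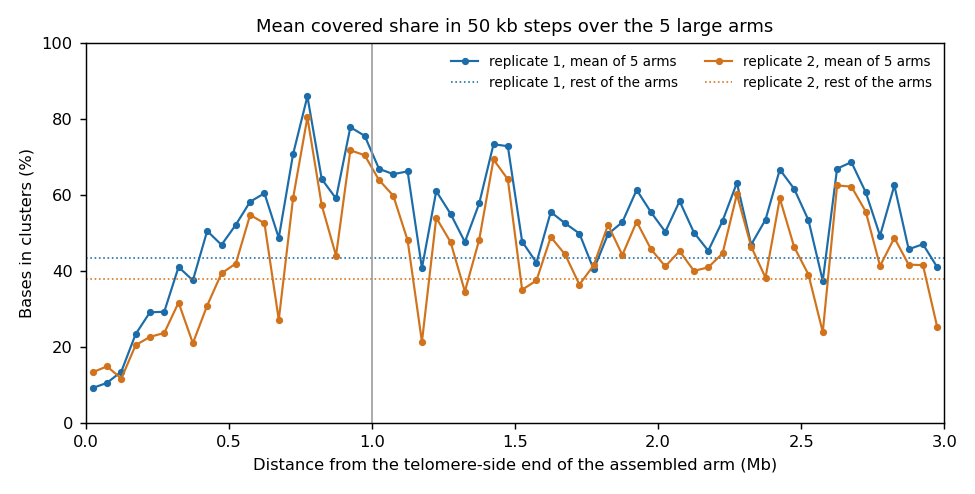
Share of bases in H3K27me2 clusters (y, percent) in 50 kb steps against distance from the telomere-side end of the assembled arm (x, Mb), as the mean of the 5 large arms in each replicate (points and lines). Dotted lines mark the mean share of the rest of the arms, 43.3% and 37.8%, and the vertical line marks the inner edge of the windows; the first 3 steps lie between 9.15% and 14.8% and the step at 750 to 800 kb above 80% in both replicates.

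The outer and inner 500 kb of each window were compared after this profile was seen. The inner 500 kb was covered more than the outer 500 kb on all 5 arms in both replicates, that is in 10 of 10 arm and library pairs. The mean share over arms was 29.0% outside and 65.2% inside in replicate 1, and 22.9% outside and 55.9% inside in replicate 2. The difference was 34.6 ± 2.27 percentage points (SD of the differences within each library, n = 2). Flipping the signs over the libraries (exact permutation test, two-sided) gave p = 0.5, the smallest that n = 2 allows. In the combined list the difference was 36.2 points. By stretches of 250 kb from the end inward the mean share was 16.8% ± 0.380, 35.1% ± 8.28, 52.5% ± 7.73 and 68.6% ± 5.47 (SD, n = 2 each).

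Of the 100 steps of 50 kb in the windows, 28 were covered below 20% in the mean of the replicates and 32 above 60%. Over all steps of the large arms these shares were 20.4% and 20.8%. The low steps lay mostly outside, with 25 of 50 in the outer 500 kb and 3 of 50 in the inner 500 kb. The high ones numbered 6 outside and 26 inside. The windows thus held more of both extremes than the arms at large, at opposite sides.

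Arm 2L had few clusters in its outer part. The share in replicate 2 was 23.6% in the first 50 kb and 0% in each of the next 4 steps, up to 250 kb. Replicate 1 had 17.8% in the first step, 3.50% to 14.6% in the 3 steps that follow and 0% at 200 to 250 kb. Coverage then rose to 65.5% and 60.8% at 300 to 350 kb, fell to 21.2% and 9.92% at 400 to 450 kb and climbed again. The fullest step in the mean of the replicates lay at 900 to 950 kb, with 99.0% in replicate 1 and 92.2% in replicate 2. The step at 750 to 800 kb was nearly as full, with 97.1% and 93.5%.

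Arm X was also low in its outer part. Coverage was 13.4% and 18.7% in the first step, 0% in both replicates at 100 to 150 kb and at most 12.2% in any step between 50 and 300 kb. It reached 75.3% and 67.0% at 450 to 500 kb. Directly inside that, at 500 to 550 kb, it dropped to 3.63% and 3.62%, the lowest step of the inner 500 kb of any arm. The fullest step was 750 to 800 kb, with 88.0% and 86.7%.

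Arm 3L was free of clusters over its first 50 kb in all 3 lists. From 50 to 250 kb its steps ran from 9.21% to 14.6% in replicate 1 and from 2.77% to 23.8% in replicate 2. The step at 450 to 500 kb had 71.0% and 89.0%, after steps of at most 34.8% in replicate 1 and 29.4% in replicate 2. The next step, at 500 to 550 kb, still had 52.9% and 65.9%. The fullest step in the mean of the replicates was 900 to 950 kb, with 83.0% and 83.7%.

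Arm 2R began with 4.63% and 2.67% in its first step and stayed at or below 10.3% up to 150 kb in both replicates. In the mean of the replicates it was fullest at 750 to 800 kb, with 95.4% and 94.1%. The last step of the window had 96.6% in replicate 1 and 79.6% in replicate 2. Between 400 and 500 kb the replicates differed strongly on 2R, as given below.

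Arm 3R departed from the others in its outer part. Its first step had 9.87% and 21.5%, but 64.3% and 64.5% were already reached at 150 to 200 kb and 75.5% and 69.4% at 200 to 250 kb. Its fullest step in the replicate mean was 550 to 600 kb, with 92.5% and 90.9%. A low step at 450 to 500 kb had 24.4% and 14.7%. Across its 20 steps the Spearman coefficient of coverage with distance was 0.447 in replicate 1 and 0.451 in replicate 2. On the other arms it ran from 0.795 on X to 0.844 on 3L in replicate 1 and from 0.690 on 2R to 0.773 on 2L in replicate 2. Steps of an arm share a library and lie side by side, so these coefficients are descriptions with no test.

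**Figure D2:**
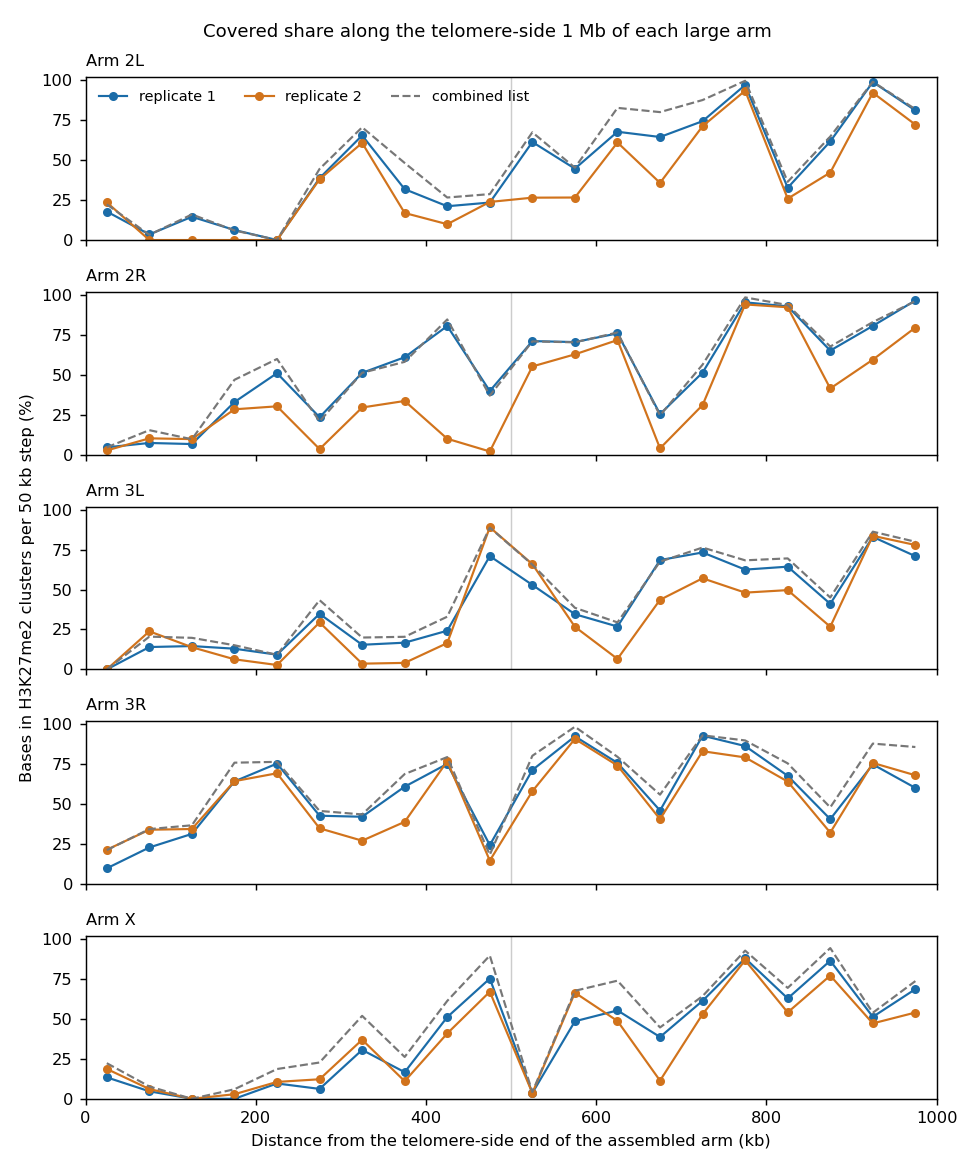
Share of bases in clusters (y, percent) per 50 kb step against distance from the telomere-side end (x, kb) on each large arm, for replicate 1 (blue), replicate 2 (orange) and the combined list (dashed); the grey line marks 500 kb. On 2L, X and 3L every step of the first 250 kb stays at or below 23.8% in both replicates, whereas 3R exceeds 60% from 150 to 250 kb.

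The outermost 250 kb was also ranked among the successive 250 kb windows of its arm, a choice made after the profile was seen. On 3L, with 10.2% and 9.37%, it was the lowest of 98 windows in both replicates. On X, with 5.54% and 7.64%, it ranked 1 and 3 from the lowest of 89. On 2L, with 8.44% and 4.72%, it ranked 2 and 1 of 92, and on 2R, with 20.5% and 16.3%, it ranked 2 and 3 of 84. The same stretch of 3R had 40.8% and 44.8% and ranked 37 and 67 of 111. The outermost 250 kb was thus among the 3 emptiest windows of its arm on 2L, 2R, 3L and X in both replicates, and was not on 3R. No test was made of these ranks.

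Over the whole 1 Mb these low and high parts offset each other. Clusters covered 43.3% ± 5.46 of the 5 windows (SD, n = 2). Replicate 1 had 47.1%, replicate 2 had 39.4% and the combined list had 52.8%. The end of 3R had the highest share, 56.1% ± 2.65. Those of 2R and 2L had 45.9% ± 11.7 and 40.7% ± 6.60, and those of X and 3L had 37.0% ± 2.25 and 36.6% ± 4.08. No neighbours in this order differed by more than the larger of their SDs, and 3R was highest within each replicate.

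Against the rest of its own arm, the end window differed by 3.78 points in replicate 1 and 1.65 points in replicate 2 in the mean over arms. The mean difference was 2.72 ± 1.50 points (SD of the differences, n = 2), with p = 0.5 in the same exact test. It was above 0 in 5 of 10 arm and library pairs, and it was -0.258 points in the combined list, so no direction held for the windows as a whole. On 3R end minus rest was 10.1 and 13.7 points, and on 3L it was -2.20 and -4.18 points, with the same sign in both replicates. On 2L the differences were 5.94 and -0.0811, on 2R 6.97 and -4.28 and on X -1.94 and 3.12, with opposite signs in the replicates.

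Among the successive windows of 1 Mb along each arm, the end ranked 23 and 25 of 27 from the lowest on 3R, 17 and 11 of 23 on 2L and 17 and 7 of 21 on 2R. It ranked 11 and 11 of 24 on 3L and 13 and 14 of 22 on X. The 1 Mb at the opposite, centromere-side end of the arms was covered to 27.3% in replicate 1 and 34.2% in replicate 2 in the mean over arms. On each arm of replicate 1 that share was lower than at the telomere side. In replicate 2 it was lower on 3R and X, and higher on 2L, 2R and 3L.

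**Figure D3:**
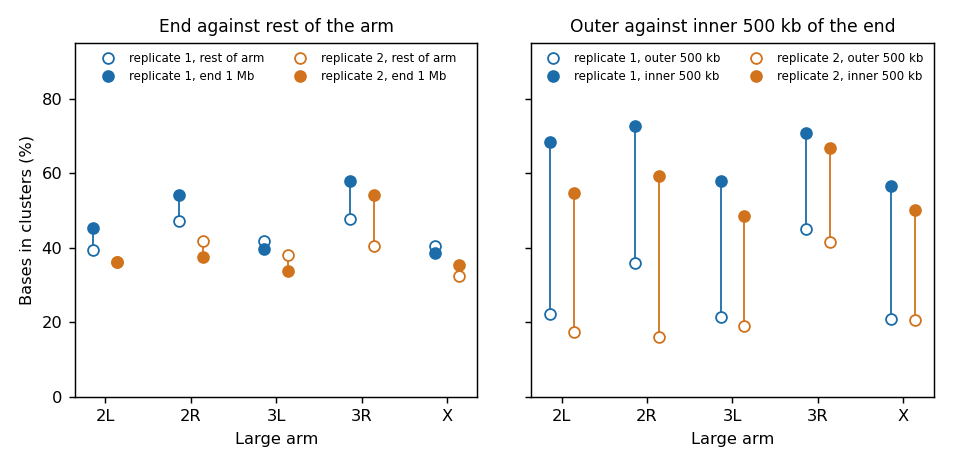
Left, share of bases in clusters (y, percent) in the end window (filled) and the rest of the same arm (open) for each large arm (x) and replicate (colour). Right, the same for the inner 500 kb (filled) and outer 500 kb (open); every filled point on the right lies above its open one, while the left panel shows both directions.

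Clusters in the windows were longer than elsewhere on the large arms. Their median length was 3145 bp (replicate 1), 2792.5 bp (replicate 2) and 3127 bp (combined). On the rest of the arms it was 2440.5, 2267 and 2639.5 bp. Clusters of at least 10 kb numbered 56, 46 and 72, which was 11.5%, 10.6% and 15.9% of the members. Over all clusters of the large arms the share was 4.03%, 3.05% and 7.49%. They held 35.1%, 34.6% and 51.6% of the bases in member clusters. The shortest members measured 1315, 1303 and 1001 bp. Lengths, scores and overlaps are set beside those of the rest of the arms as descriptions, with no test, since clusters of a library are not replicates.

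Length followed the distance from the end. Members in the outer 500 kb had a median of 2463.5 bp in replicate 1 and 2012.5 bp in replicate 2, and those in the inner 500 kb had 4027 and 3496.5 bp. The outer medians lay near or below the 2440.5 and 2267 bp of the rest of the arms, and the inner ones above. Combined clusters had 2136 bp outside and 4729 bp inside, against 2639.5 bp. By arm, only the X end in the combined list had a lower median than the rest of its arm (2614 against 2671 bp). The number of clusters changed less, from 200 to 289 in replicate 1 and from 166 to 266 in replicate 2. Of the clusters of at least 10 kb, 12 lay outside and 44 inside in replicate 1, and 10 and 36 in replicate 2. The higher inner coverage thus came with both more and longer clusters.

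The deposited score, read as a log2 value though neither labels nor file headers name its base, was also higher inside. In replicate 1 the median was 0.65 in the outer and 0.85 in the inner 500 kb. The medians were 0.61 and 0.67 in replicate 2, and 0.43 and 0.65 among combined clusters. Over the windows it was 0.75, 0.65 and 0.52 in these lists, against 0.67, 0.62 and 0.47 on the rest of the large arms. Members scored at or above the median of their whole list made up 55.6%, 53.9% and 52.2%, where all clusters of the large arms gave 48.1%, 46.7% and 46%. On 2L the median was 0.81 in replicate 1 and 0.66 in replicate 2, against 0.62 and 0.60 on the rest of 2L. On X it was 0.75 and 0.68, against 0.76 and 0.70.

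Longer members scored higher, with Spearman coefficients of 0.799, 0.748 and 0.778 across the members of replicate 1, replicate 2 and the combined list. Score and length therefore moved together from the end inward and were not told apart. Scores ran from 0.063 to 1.82 in replicate 1 and from 0.30 to 0.98 in replicate 2. No region typed as depleted had its midpoint in a window. The number of such regions elsewhere is not given here, so this is not read as a trait of the ends.

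**Figure D4:**
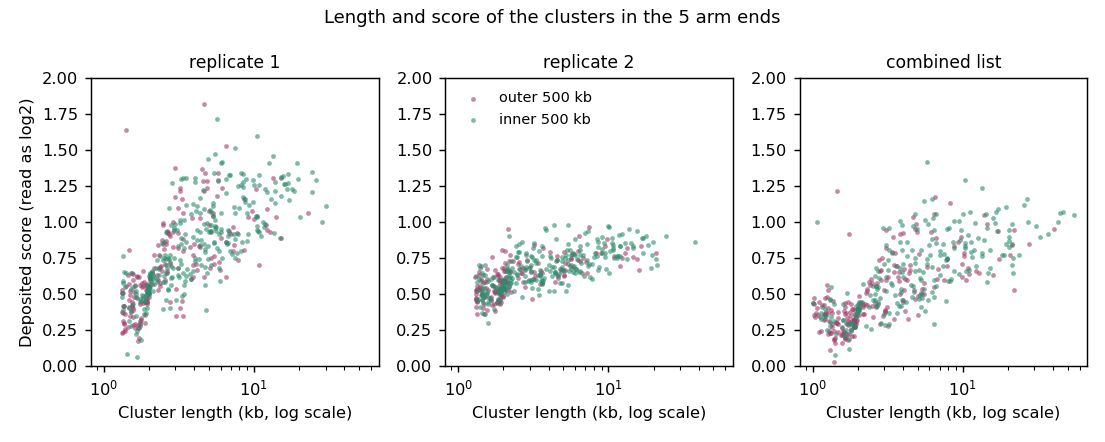
Deposited score (y, read as log2) against cluster length (x, kb, log scale) for all members in replicate 1, replicate 2 and the combined list, coloured by the outer or inner 500 kb of the end window. The longest clusters are mostly from the inner 500 kb, and scores in replicate 2 stay below 1.

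The longest clusters of the combined list lay in the inner 500 kb on 4 of the 5 arms. On 2L the longest spanned 55.3 kb from 922252 to 977545, with a score of 1.05. Replicate 1 covered 99.2% of it and replicate 2 covered 88.9%. On 2R it spanned 46.3 kb from 20302846 to 20349182, with a score of 1.07, and was covered to 98.3% and 99.4%. On X it spanned 42.8 kb from 737837 to 780625, with a score of 1.00, and was covered to 96.8% and 95.8%. On 3L it spanned 27.2 kb from 931938 to 959089, with a score of 1.00 and 96.3% and 94.7% covered. The exception was 3R, where the longest spanned 40.6 kb from 27447345 to 27487943, at 417 to 458 kb from the end, with 98.7% and 95.6% covered. Each of the 5 was thus marked over most of its length in both libraries.

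The longest clusters of single replicates were shorter. In replicate 1 they measured 25.9 kb on 2L, 30.3 kb on 2R, 15.8 kb on 3L, 28.2 kb on 3R and 20.4 kb on X. In replicate 2 they measured 37.6, 18.2, 24.3, 21.0 and 13.6 kb on the same arms. When clusters closer than 1 kb were joined, the combined list had domains of 100.5 kb on 2L (877089 to 977545) and 108.8 kb on 3R (27288820 to 27397647). Another of 100.3 kb on 2R ran from 20123381 to 20223655, beyond the inner edge of the window. The longest were 77.3 kb on X (836812 to 914078) and 41.5 kb on 3L (785216 to 826710). Joined domains of at least 20 kb numbered 25 in each replicate, 5 per Mb, against 3.04 and 2.15 per Mb on the rest of the large arms. Of these, 5 and 6 lay in the outer 500 kb. In the combined list joined domains of this size numbered 37, or 7.4 per Mb against 5.80 per Mb, with 9 in the outer 500 kb.

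The highest score of the combined members was 1.42, for a cluster of 5.79 kb on 3L from 865469 to 871262, with 98.4% covered in replicate 1 and 74.9% in replicate 2. The next were 3L 841185 to 851550 (score 1.30), 2L 983766 to 997195 (1.24), X 55 to 1498 (1.22) and 3L 285398 to 291967 (1.17). All but the cluster on X were covered over most of their bases by each replicate. The cluster at X 55 to 1498 lay at the very end of the assembled arm, was 1.44 kb long and was covered to 0% in both replicates. A similar short cluster of replicate 1, X 14766 to 16177, had a score of 1.64 and no covered base in replicate 2. On 2R and 3R the highest combined scores were 1.16 (20589662 to 20616358) and 0.99 (27564049 to 27568894).

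In replicate 1 the highest score was 1.82, at 2L 262895 to 267544, a cluster of 4.65 kb on the inner side of the longest free stretch of that window. Replicate 2 covered all of it. The highest member of replicate 2, with 0.98, lay on X from 796147 to 801494, and replicate 1 covered 98.6% of it. The sources used here do not state whether the lists share a score scale. Parts of the arms were therefore compared by score only within a list. Score levels of different lists, where averaged or set side by side, are descriptions.

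The cluster nearest the end was placed alike in both replicates on 4 arms. It began 30.3 and 30.2 kb from the end on 2L, 53.8 and 53.8 kb on 3L, 10.9 and 11.2 kb on 3R and 5.71 and 5.93 kb on X. On 2R it began at 30.0 kb in replicate 1 and at 10.3 kb in replicate 2, at different clusters. The outermost bases of each arm lay outside the clusters of both replicates.

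Stretches with no cluster in any of the 3 lists made up 45.6% of the windows in the mean over arms, near the 44.8% of the rest of the arms. They lay mainly outside, with 63.1% of the outer and 28.0% of the inner 500 kb free. The windows, 4.2% of the large arms, held 60 of the 1364 free stretches of at least 10 kb. Of these 60, 41 lay in the outer 500 kb. Among the 24 of at least 20 kb, 20 were in the outer 500 kb and 4 in the inner.

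The longest free stretch was 99.4 kb on 2L, from 153524 to 252950. It was followed by X 95275 to 160032 (64.8 kb), 3L 1 to 53732 (53.7 kb), X 502114 to 552696 (50.6 kb) and 3L 223571 to 272722 (49.2 kb). The first 4 of these are among 49 stretches of at least 50 kb on all large arms. On 2R the longest was 38.5 kb, from 21075965 to 21114428, and on 3R it was 32.3 kb, from 27594887 to 27627203. Free stretches of at least 10 kb took up 36.0% of the window on 2L, 32.3% on 3L, 30.5% on X, 22.4% on 2R and 16.6% on 3R. On the rest of these arms they took up 22.1%, 22.6%, 27.7%, 24.0% and 22.0%. The windows of 3R and 2R were thus below the rest of their arms in such stretches, and those of 2L, 3L and X above. Whether a free stretch lacks the mark or lacks placed reads was not tested.

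**Figure D5:**
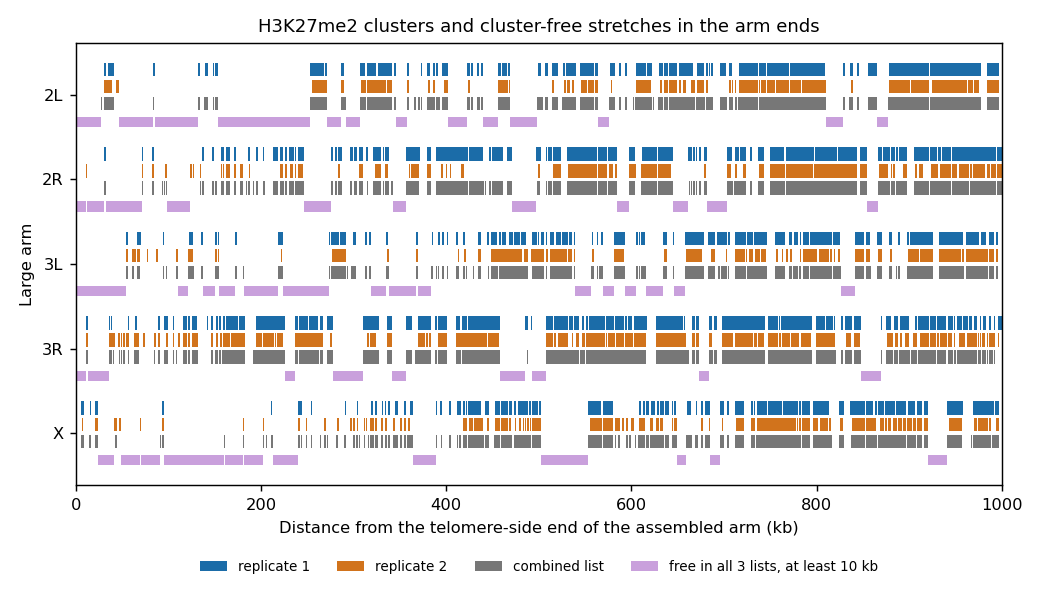
Clusters of replicate 1 (blue), replicate 2 (orange) and the combined list (grey), and stretches of at least 10 kb free in all 3 lists (violet), against distance from the telomere-side end of each large arm (x, kb). On each arm more free stretches lie in the outer than in the inner 500 kb, with the longest, 99.4 kb, on 2L.

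The replicates overlapped more in the inner than in the outer part. The Jaccard index (bases in both lists, divided by bases in at least one) was 0.684 in the windows and 0.614 on the rest of the large arms. It was 0.540 in the outer 500 kb and 0.754 in the inner 500 kb. By arm it was 0.759 on 3R, 0.705 on 2L, 0.667 on 3L, 0.641 on 2R and 0.625 on X. On the rest of these arms it was 0.637, 0.577, 0.603, 0.665 and 0.578, so that 2R alone had the lower index at its end. A list that covers more sequence overlaps more at any placement, and the index was not corrected for that.

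By cluster, 365 of the 489 members of replicate 1 (74.6%) touched a cluster of replicate 2, near the 76.9% over all clusters of the large arms. Of the members of replicate 2, 384 of 432 (88.9%) touched a cluster of replicate 1, near 87.7% over the large arms. With a reciprocal overlap of 50% the shares were 46.2% and 52.1%, against 51.6% and 54.5%. In the outer 500 kb 65.5% and 78.3% of the members touched the other list, and in the inner 500 kb 81.0% and 95.5%. The 124 members of replicate 1 without a partner were short and low in score, with medians of 1867.5 bp and 0.53, against 4300 bp and 0.87 for the rest. Over all large arms the same held, with 1777 bp and 0.51 against 2940 bp and 0.74. In the combined list 41 of 452 members (9.07%) touched neither replicate, against 12.4% over the large arms. They were 30 of 219 in the outer 500 kb (13.7%), near that share, and 11 of 233 in the inner 500 kb (4.72%).

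Over the 100 steps the covered shares of the replicates were correlated with Spearman's rho of 0.909 and Pearson's r of 0.906, across steps of 2 libraries and with no test. Replicate 1 was higher in 74 steps and replicate 2 in 23. On the rest of the large arms replicate 1 was likewise higher in 1666 of 2278 steps and replicate 2 in 591. The median absolute difference was 7.81 points, and 6 steps differed by over 25 points, near the 6.52% of all steps of the large arms. By far the largest gap was on 2R at 400 to 450 kb (20696709 to 20746708), where replicate 1 had 80.6%, replicate 2 had 10.0% and the combined list had 84.7%. The step next to it, at 450 to 500 kb, had 39.9%, 2.04% and 37.0%. The stretch of 2R from 250 to 500 kb had 51.2% in replicate 1 and 15.8% in replicate 2. The cause of that gap was not tested.

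Scores of reciprocally best overlapping clusters had a Spearman coefficient of 0.650 over 304 pairs, and lengths had 0.741. Both are ranks within each list, across clusters and with no test.

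No gene was placed on these clusters, since they are in release 5 coordinates and the RefSeq gene table used here is of release 6. The table was used for names and gene order alone, and 42 of 43 listed symbols were found on their arm. By that order l(2)gl, a cell-polarity gene and tumour suppressor, is the outermost protein-coding gene of 2L. The gap gene Kr is gene 5 from the end of 2R, krz, which encodes a beta-arrestin, is gene 3 of 3R, and Lsp1gamma, a larval serum protein gene, is gene 3 of 3L. On X the pigment gene y and the proneural genes ac, sc and l(1)sc follow each other as genes 20 to 23, and ase, of the same complex, is gene 25. Of other regulators, emc on 3L is gene 86, Dll on 2R is gene 47 and ttk on 3R is gene 31. Whether any of them lies in a cluster or a free stretch was not determined.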

How the data were processed

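ChIP-seq with an H3K27me2 antibody was analysed in 2 ChIP samples of L3 larval nuclei; the 2 input samples entered no comparison of their own. The authors deposited enriched regions per ChIP sample, and a further list that combines both. Alignment was by Bowtie 0.12.7 per the submitters' processing notes, and coordinates are FlyBase release 5, per the file headers. The sources used here do not give the caller, its thresholds, the scaling of input or the making of the combined list. The deposited score was read as log2 from the values: 398, 78 and 246 pairs of distinct scores (replicate 1, replicate 2, combined) lay exactly 1 apart within 1e-09, and 0 pairs were separated by log10 or natural log of a doubling. Depth is unknown.

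From these lists, coverage was computed with Python 3.11.15, numpy 2.4.6, scipy 1.17.1 and matplotlib 3.10.9 as bases of any enriched cluster inside a window or 50 kb step. A cluster that crossed the inner edge belonged to the window by its midpoint; 1 member in each list on 2R and 1 of replicate 1 on 3R ran past it. Regions past the end of their sequence (1 in replicate 1, 1 in the combined list) were clipped. Interval functions were tested on simulated data. Named regions are the longest and highest-scored member, longest joined domain, longest free stretch, extreme steps and outermost cluster of each window, and the 5 highest scores and longest free stretches over all. Members and lists were chosen with earlier results of these data known. With 2 samples, an exact sign-flip permutation test cannot go below p = 0.5. Alternatives left out a replicate, used the combined list, higher scores, other window sizes, joined clusters and 50% reciprocal overlap.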

Additional observations from a re-analysis of the deposited data

Results flagged for a closer look

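The arm ends of 3L and 3R differed from the rest of their arms in opposite directions in both replicates. The 3L end lay below its arm, with end minus rest of -2.20 points in replicate 1 and -4.18 in replicate 2, and the 3R end lay above, with 10.1 and 13.7 points. Their mean differences were -15.1 percentage points apart (3L minus 3R). This was noticed by the signs alone, and the difference between the arms was not tested.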

How the results depend on the processing

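The covered share of the windows was 43.3% in the replicate mean and 39.4% to 47.1% when one replicate was dropped. It was 52.8% in the combined list, 34.2% for higher-scored clusters (those not below the median score of their list), 26.0% in windows of 500 kb and 16.8% in windows of 250 kb. End minus rest of arm was 2.72 points, and 1.65 to 3.78 when one replicate was dropped. It reversed to -0.258 in the combined list, -15.0 in windows of 500 kb and -24.1 in windows of 250 kb; the narrower windows hold only the low outer part. It rose to 7.29 for higher-scored clusters, 7.36 in windows of 2 Mb and 6.20 without the first 100 kb. The inner 500 kb stayed above the outer 500 kb in the 5 alternatives run, from 31.1 points without the first 100 kb to 36.2 in the combined list; these alternatives and the 250 kb window were chosen after seeing the data. Members numbered 460.5 on average, 432 to 489 by single replicate, 252.5 for higher-scored clusters and 279.5 after joining; the last 2 changes follow by construction. Median length was 2968.75 bp, 2792.5 to 3145 bp by single replicate, 5265 bp for higher-scored clusters and 4068.25 bp after joining. Median score was 0.70, 0.65 to 0.75 by single replicate, 0.52 in the combined list and 0.86 for higher-scored clusters. The Jaccard index was 0.684, against 0.624 for higher-scored clusters and 0.540 in windows of 500 kb. With the combined list it was 0.874 for replicate 1 and 0.710 for replicate 2, so in the windows that list lay closer to replicate 1. With 50% reciprocal overlap, a stricter criterion by construction, 46.2% and 52.1% of clusters had a partner. The longest free stretch was 99.4 kb, and 201 kb when lower-scored clusters were ignored. Leaving out lower-scored clusters can by construction only lower coverage, raise the median score and lengthen the longest free stretch. The cause of the other changes was not tested. Coverage of genes was not computed, as genes were not placed in release 5. No paired analysis was possible because no groups with shared replicate numbers were compared: input regions were not analysed here, and differences were taken within each ChIP library. What depth limits was not measured.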
